A study of Rattus norvegicus with 2 samples.

Results

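The insulin-like growth factor system was followed here through 10 genes, namely the ligands *Igf1* and *Igf2*, the receptors *Igf1r* and *Igf2r*, and the binding proteins *Igfbp2*, *Igfbp3*, *Igfbp4*, *Igfbp5*, *Igfbp6* and *Igfbp7*. They were taken by symbol from the 25399 genes listed for each library, and all 10 were found. The cells came from hearts of Sprague-Dawley rats 1 to 3 days old, of pooled sex, and were enriched on a Percoll gradient for intrinsic cardiac adrenergic (ICA) cells, a catecholamine-making cell type of the heart. In culture they received saline (control) or 1 µg/mL lipopolysaccharide (LPS, a bacterial cell wall component that activates innate immune receptors) for 2 h. Each condition was 1 library on the 10X Genomics 3′ platform, so the spread between cultures is unknown, no test was possible, and every interval below covers counting error only. In control, 152624585 unique molecular identifiers (UMIs, each a captured mRNA molecule) were counted over 11531 cells, at a median of 12479 per cell. With LPS there were 12689 cells and 127580475 UMIs (median per cell 9432), and 194 cell barcodes occurred in both libraries.

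The authors' cell table puts 11529 control and 12681 LPS cells into 11 clusters, which are named here as in that table. Clusters 0, 1 and 7 are named Fibroblast, clusters 4 and 5 Endothelial, cluster 6 Macrophages, and cluster 3 ICA and Cardiomyocyte. Clusters 2, 8, 9 and 10 are Uncommented there and keep their numbers. Levels are UMIs per 1000000 UMIs of the cluster in that library (CPM). Among the marker lists, the summed mural genes were highest in cluster 2 (1221.4 CPM in control, 975 in LPS) and the summed mesothelial genes in cluster 8 (523 and 577). The 3 summed Schwann cell genes were highest in cluster 10 (744 and 483, from 107 and 77 UMIs). Markers of ICA cells were sparse, with 5 control and 4 LPS UMIs of *Th*, none of them in cluster 3, and 1 and 2 of *Pnmt*. *Dbh* had 268 and 175, of which cluster 3 held 180 and 136. *Ddc* had the most, 514 and 398, of which cluster 3 held 351 and 312. The 9 fibroblast markers were seen in every cluster, and in clusters 2 to 6 and 8 their summed level was between 20.6% and 47.5% of that in cluster 0, while in cluster 9 it was 148% in control and 136% in LPS. The levels of the 10 genes outside the fibroblasts are therefore set beside these percentages where they are low.

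IGF1 and IGF2 are secreted growth factors that act through the IGF1 receptor, a tyrosine kinase that signals through insulin receptor substrates, phosphoinositide 3-kinase and AKT. The IGF2 receptor, also the receptor for mannose 6-phosphate, takes IGF2 up for breakdown in lysosomes and sorts lysosomal enzymes. The binding proteins hold IGFs outside the cell, prolong their stay and control their access to receptors, and some act on cells without IGF; in the heart the system is known for its part in fetal and neonatal growth and in the survival of cardiomyocytes.

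The promoter sequences of *Igf1* and *Igfbp3* are shown because these genes differed between the libraries in opposite directions, and those of *Igfbp4* and *Igfbp6* because they hold the matches to the TATA box and to the forkhead motif. RefSeq's GRCr8 tables gave promoters for all 10 genes, 11 promoters in all, and the 250 bases before the start of transcription are printed 5′ to 3′ on the strand of the gene, with motif matches in capitals. They lie at chr7:24172282-24172531 (plus strand) for *Igf1*, chr14:86277945-86278194 (minus) for *Igfbp3*, chr10:84491221-84491470 (plus) for *Igfbp4* and chr7:135154669-135154918 (plus) for *Igfbp6*.
Igf1: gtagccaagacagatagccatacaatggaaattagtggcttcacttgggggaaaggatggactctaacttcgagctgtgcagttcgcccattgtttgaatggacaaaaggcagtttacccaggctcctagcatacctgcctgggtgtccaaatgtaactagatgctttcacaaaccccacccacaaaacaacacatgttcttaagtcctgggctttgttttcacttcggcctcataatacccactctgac
Igfbp3: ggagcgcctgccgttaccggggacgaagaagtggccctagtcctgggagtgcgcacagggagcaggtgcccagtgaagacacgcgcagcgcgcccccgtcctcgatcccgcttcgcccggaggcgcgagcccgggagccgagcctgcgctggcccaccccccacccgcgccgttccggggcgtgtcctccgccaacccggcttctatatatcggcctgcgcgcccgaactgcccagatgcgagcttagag
Igfbp4: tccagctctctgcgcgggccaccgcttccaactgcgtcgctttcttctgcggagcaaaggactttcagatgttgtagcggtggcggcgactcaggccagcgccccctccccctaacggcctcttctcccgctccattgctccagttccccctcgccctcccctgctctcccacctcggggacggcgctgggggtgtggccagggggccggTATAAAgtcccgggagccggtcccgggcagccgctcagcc
Igfbp6: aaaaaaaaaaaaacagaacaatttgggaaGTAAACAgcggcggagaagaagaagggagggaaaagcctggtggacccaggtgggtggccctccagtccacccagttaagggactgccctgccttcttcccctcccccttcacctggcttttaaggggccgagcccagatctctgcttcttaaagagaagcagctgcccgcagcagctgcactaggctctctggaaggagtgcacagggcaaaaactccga
The *Igf1* window, with the 50 bases after the start, was 48.3% G and C and the *Igfbp3* window 71.7%, against a median of 51.7% over 33469 promoters of that length. On both strands, 7 motifs were searched. No promoter of the 10 genes held the NF-kappaB motif, the AP-1 motif TGANTCA, the cAMP response element TGACGTCA or the core of the interferon response element, which occurred in 4.18%, 7.33%, 1.83% and 3.92% of all promoters. *Igfbp4* held the TATA box TATAAA from base -40 (14.2% of all promoters) and *Igfbp6* the forkhead motif GTAAACA from base -221 (3.78%). The GC box GGGCGG, found in 33.1% of all promoters, occurred in those of *Igf2*, *Igf1r*, *Igf2r*, *Igfbp2* and *Igfbp7*. The absence of a match says only that these letters are not in these windows.

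*Igf1* was lower in the LPS library in all 10 clusters compared, and in 9 of them the counting interval of the ratio lay below 1. In the fibroblasts of cluster 0, which held 75.2% of the control and 73.3% of the LPS *Igf1* UMIs, there were 21819 UMIs in control and 6096 in LPS. The level was 241 CPM (95% Poisson interval 238 to 244) against 82.6 (80.6 to 84.7), a ratio of LPS to control of 0.343 (0.333 to 0.353). The fibroblasts of cluster 1, where the summed cycling markers were highest, had 125 and 46.1, a ratio of 0.369, and those of cluster 7 had 198 and 55.9, a ratio of 0.282. The 3 fibroblast clusters thus had ratios close to one another although their control levels differed.

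*Igf1* UMIs were also counted outside the fibroblast clusters. In the macrophages of cluster 6 the level was 190 in control and 70.8 in LPS, a ratio of 0.373 (0.313 to 0.441). This was 78.8% of the cluster 0 level in control and 85.7% in LPS, whereas the 9 fibroblast markers in the same macrophages stood at 17.4% to 42.6% and at 19.7% to 35.8% of their cluster 0 levels. The macrophage level of *Igf1* was therefore above that of every fibroblast marker on this scale, in both libraries. In cluster 3, by contrast, *Igf1* was 50.9 and 15.1, or 21.1% and 18.3% of cluster 0, within the ranges of the fibroblast markers there (18.6% to 46.8% and 15.9% to 53.2%). In the endothelial cells of cluster 4 it was 81.9 and 36.4, a ratio of 0.444. Relative to cluster 0 this was 34.0% in control, just under the highest fibroblast marker there (34.1%), and 44.0% in LPS, above all 9 of them (16.7% to 30.8%). The part of free RNA from fibroblasts in the levels of clusters 3 and 4 was not tested.

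Cluster 8 had 100 *Igf1* UMIs in control and 78 in LPS, 90.0 and 74.3 CPM, and was the cluster whose ratio of 0.826 had an interval that included 1 (0.606 to 1.12). Cluster 9 was at the other end, with 60 and 5 UMIs and a ratio of 0.134 (0.0420 to 0.331). The highest control cell of cluster 9 held 14 of its 60 UMIs. Thinned shares there were 24.2% (14.5 to 36.4) and 5.56% (1.16 to 15.4), with intervals that overlapped. Its *Igf1* levels were 55.3% and 21.6% of cluster 0, below every fibroblast marker there (71.0% to 191% and 37.4% to 216%). The part of free RNA in them was not tested. In control, the order of levels from high to low was cluster 10, 0, 7, 6, 2, 9, 1, 8, 4, 5 and 3, and the intervals of clusters 10 and 0 overlapped, as cluster 10 held only 16 control cells and 38 *Igf1* UMIs. In LPS cluster 0 came first, followed by clusters 8, 6 and 7, each with an interval that overlapped that of its neighbour.

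**Figure D1:**
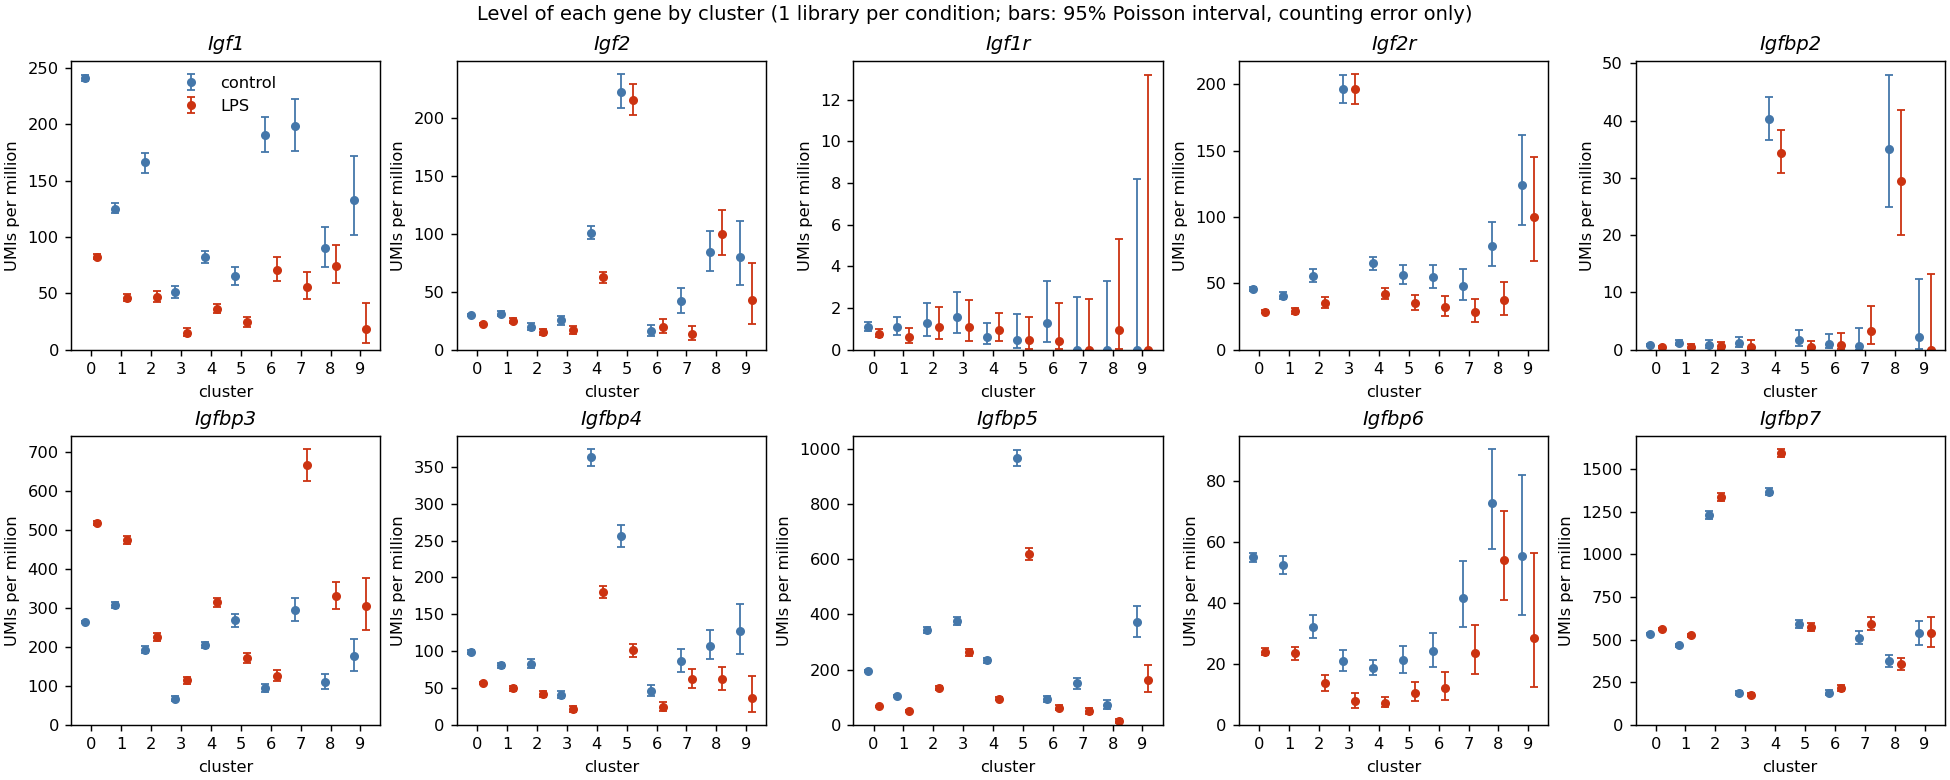
Level of each of the 10 genes (CPM, y axis, from 0 and scaled for each gene) in clusters 0 to 9 (x axis), with control in blue and LPS in red, 1 library each, and bars for the 95% Poisson interval of counting error. *Igf1* lies lower in LPS in every cluster, *Igf2* has its highest points in cluster 5 (223 in control and 216 in LPS), and *Igfbp3* lies higher in LPS in every cluster except cluster 5.

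The shares of cells with an *Igf1* UMI moved with the levels. In cluster 0, 73.3% of control and 34.3% of LPS cells had at least 1 UMI, at median depths of 12968 and 9821 UMIs. After every cell was thinned to 3000 UMIs the shares were 39.1% (Clopper-Pearson 37.9 to 40.3) and 17.3% (16.4 to 18.2), so the shares remained apart at equal depth. In macrophages the thinned shares were 35.2% and 15.2%, and in cluster 3, which had the lowest *Igf1* level, 10.8% and 3.46%.

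*Igf2*, the main IGF of fetal tissues, was highest in the endothelial cells of cluster 5, with 948 UMIs in control and 983 in LPS. The levels were 223 and 216 CPM, a ratio of 0.968 (0.885 to 1.06), so the interval included 1. The other endothelial cluster, cluster 4, had 1125 and 607 UMIs, levels of 101 and 62.4 and a ratio of 0.617 (0.558 to 0.681). The 2 endothelial clusters thus differed in *Igf2* both in level and in the ratio, and the counting intervals of the ratios did not overlap. Cluster 8 had 84.6 and 100, a ratio of 1.18 (0.887 to 1.58).

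In fibroblasts *Igf2* was 30.1 and 22.3 in cluster 0, a ratio of 0.741 (0.697 to 0.788), and 30.9 and 24.8 in cluster 1, a ratio of 0.805. The fibroblasts of cluster 7 had a lower ratio, 0.315 (0.180 to 0.529), from 61 and 20 UMIs and levels of 41.8 and 13.2. The highest control cell of cluster 7 held 13 of its 61 UMIs. Thinned shares in cluster 7 were 8.65% (4.03 to 15.8) and 4.17% (1.54 to 8.85), with intervals that overlapped. The summed interferon response genes were also highest in that cluster (730 in control, 2361.7 in LPS). The 6 endothelial markers measured in cluster 0 had a summed level of 4.59% and 3.57% of that in cluster 4, beside which *Igf2* in cluster 0 was 29.7% and 35.7% of its level in cluster 4. Of its level in cluster 5, the highest, it was 13.5% and 10.3%, and the single endothelial markers in cluster 0 reached up to 9.63% and 9.39% of their levels in cluster 4. After thinning, 42.0% of control and 35.1% of LPS cells of cluster 5 had an *Igf2* UMI (72.9% and 63.4% unthinned, median depths 10171 and 8998), against 8.26% and 5.99% in cluster 0.

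**Figure D2:**
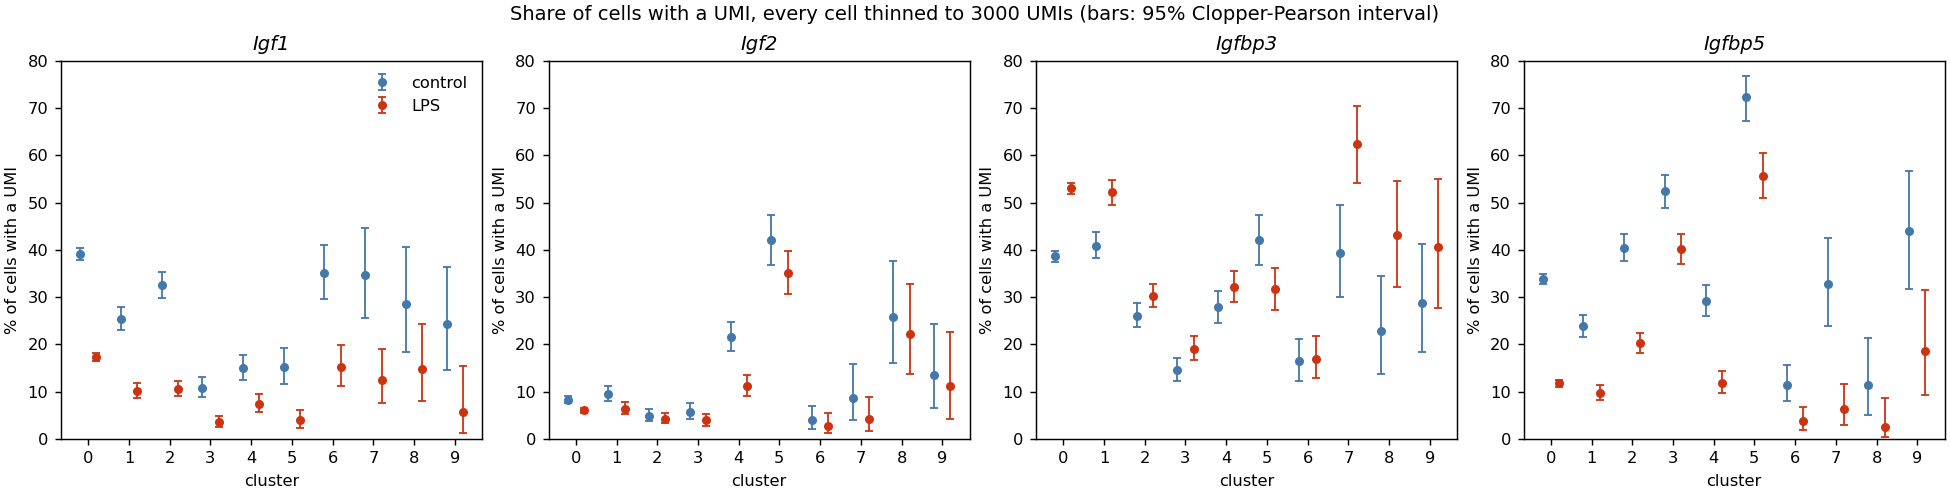
Percentage of cells with at least 1 UMI of *Igf1*, *Igf2*, *Igfbp3* or *Igfbp5* (y axis) in clusters 0 to 9 (x axis) after each cell was thinned to 3000 UMIs, control in blue and LPS in red, with 95% Clopper-Pearson intervals. For *Igf1* in cluster 0 the points stand at 39.1% and 17.3%, and for *Igfbp3* in cluster 0 at 38.7% and 53.1%.

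*Igf1r*, the signalling receptor, was captured in few cells. There were 160 UMIs in control and 98 in LPS over all clusters, 1.05 and 0.768 CPM, a ratio of 0.733 (0.564 to 0.948). Cluster 0 held 98 and 57 of them, levels of 1.08 and 0.773 and a ratio of 0.714 (0.506 to 0.999). The other clusters had too few UMIs to compare, and clusters 7 and 9 had 0 in both libraries, which allows up to 2.06 and 1.97 CPM in cluster 7 and up to 6.67 and 10.7 in cluster 9 (3 UMIs per library). An *Igf1r* UMI was present in 1.38% of control and 0.765% of LPS cells, so the order of the cell types could not be read from it at this depth.

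*Igf2r* was highest in cluster 3, the ICA and cardiomyocyte cluster, with 1389 UMIs in control and 1076 in LPS. The level was 196 CPM in both libraries, a ratio of 1.00 (0.923 to 1.08). In cluster 0 there were 4125 and 2100 UMIs, 45.6 and 28.5 CPM, a ratio of 0.625 (0.592 to 0.659), and the intervals of these 2 ratios were apart. In the remaining clusters up to cluster 9 the ratio ran from 0.475 in cluster 8 (87 and 39 UMIs) to 0.805 in cluster 9 (56 and 28 UMIs, interval 0.492 to 1.29). Cluster 9 also had the next highest level, 124 and 100, and its summed cardiomyocyte markers were 1146.8 and 1305.2, against 6942.3 and 7336.2 in cluster 3, while its summed fibroblast markers, 17292.4 and 14514.8, were the highest of any cluster. Thinned shares in cluster 3 were 44.3% and 44.9%, although the unthinned shares, 74.2% and 64.5%, differed with the median depths of 7526 and 5269.

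*Igfbp3*, the main carrier of circulating IGFs and a product of many mesenchymal cells, was the only one of the 10 genes past 1.5-fold higher in LPS in any of clusters 0 to 9 with at least 50 UMIs of the gene. In cluster 0 there were 23901 UMIs in control and 38127 in LPS. The levels were 264 and 517 CPM, a ratio of 1.96 (1.93 to 1.99). Summed over cluster 0, *Igfbp3* thus differed between the libraries in the opposite direction to *Igf1*. The 2 genes were not compared within single cells. Cluster 1 had 306 and 474 (ratio 1.55), cluster 7 had 295 and 666 (2.26), and cluster 8 had 110 and 330 (3.00, interval 2.44 to 3.72). Of clusters 0 to 9, cluster 8 had the highest ratio, and the few cells of cluster 10 had 9 and 82 UMIs. Ratios were 1.71 in cluster 3, 1.34 in macrophages and 1.17 in cluster 2. The *Igfbp3* levels of cluster 3 were 25.2% and 22.0% of cluster 0 and those of macrophages 35.4% and 24.2%, all within the ranges of the fibroblast markers in these clusters. In cluster 8 *Igfbp3* was at 41.6% in control, within the marker range there (10.8% to 56.4%), and at 63.8% in LPS, above it (10.3% to 56.8%). The part of free RNA in the *Igfbp3* levels of these 3 clusters was not tested.

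The endothelial clusters differed in *Igfbp3*. Cluster 4 had 2272 UMIs in control and 3052 in LPS, levels of 204 and 314 and a ratio of 1.54 (1.45 to 1.62). Cluster 5 had 1138 and 778, levels of 268 and 171 and a ratio of 0.638 (0.582 to 0.700). It was the only one of the 10 clusters with a lower *Igfbp3* level in LPS, and its intervals did not overlap between the libraries (thinned shares 42.0% and 31.7%). As a percentage of cluster 0, *Igfbp3* in cluster 5 was 101% in control and 33.1% in LPS, beside 26.4% and 20.6% for the summed fibroblast markers, and in LPS it lay within the range of those markers (17.0% to 43.8%). With clusters 4 and 5 joined into 1 endothelial class the log2 ratio was 0.27, opposite in sign to the -0.65 of cluster 5 alone.

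**Figure D3:**
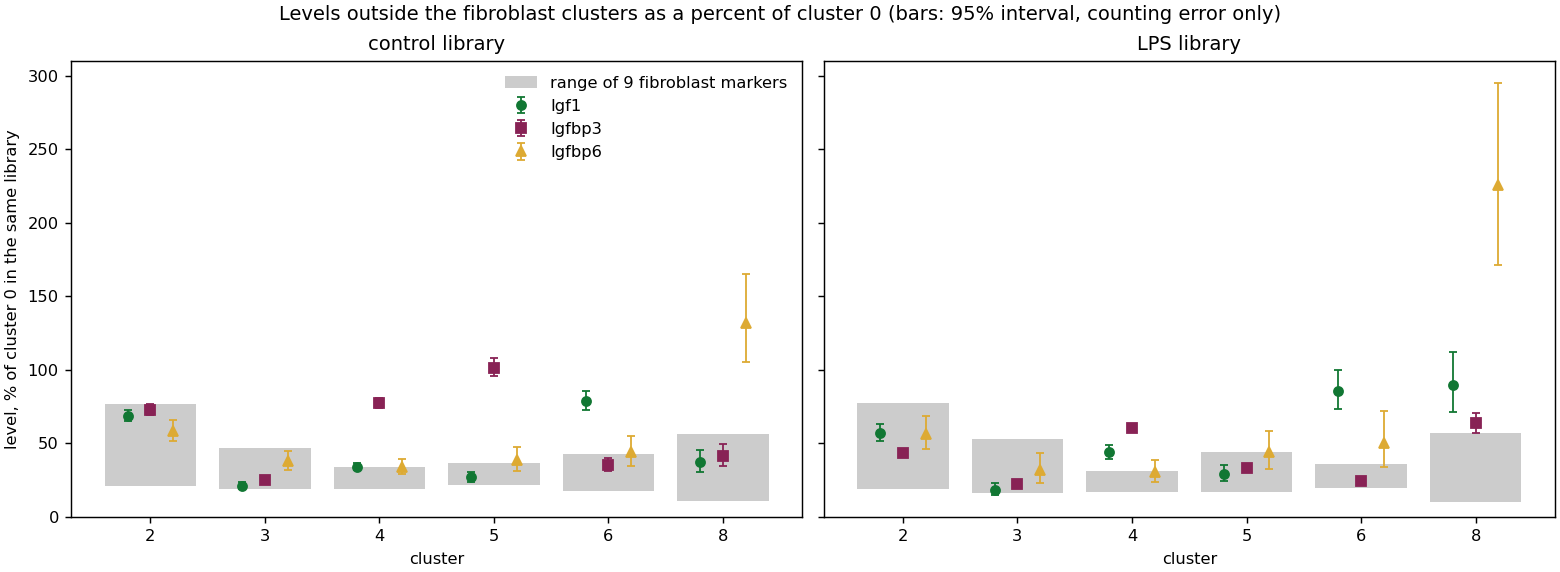
Levels of *Igf1*, *Igfbp3* and *Igfbp6* in clusters 2, 3, 4, 5, 6 and 8 (x axis) as a percentage of the level in the fibroblasts of cluster 0 in the same library (y axis), with 95% intervals of counting error, beside grey bars that span the 9 fibroblast markers. *Igf1* in macrophages (cluster 6) lies above the grey bar in both libraries (78.8% and 85.7%), and *Igfbp3* in cluster 5 is at 101% in control and 33.1% in LPS.

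*Igfbp5*, a binding protein that adheres to the extracellular matrix, was lower in LPS in all 10 clusters. Cluster 5 had 4108 and 2817 UMIs, levels of 967 and 619 CPM and a ratio of 0.640 (0.610 to 0.672), and cluster 0 had 17686 and 4882 UMIs, levels of 195 and 66.2 and a ratio of 0.339 (0.328 to 0.350). In cluster 3 the levels were 376 and 262, a ratio of 0.698 (0.654 to 0.745). The clusters where *Igfbp5* was high therefore included both a small and a large difference, since cluster 2, with 342 and 133, had a ratio of 0.388. Cluster 8 had 81 and 13 UMIs and the lowest ratio, 0.170 (0.0868 to 0.307). Its levels were 37.3% and 18.7% of cluster 0, within the ranges of the fibroblast markers there (10.8% to 56.4% and 10.3% to 56.8%). The part of free RNA in them was not tested. Cluster 10, with 16 control and 26 LPS cells, had the highest control level of all, 1439.5, and 401 in LPS.

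The macrophage value of *Igfbp5* rested on 1 cell. There were 291 UMIs in control and 155 in LPS, a ratio of 0.667 (0.546 to 0.814), but 86 of the LPS UMIs came from a single cell, and the next highest cell had 12. That cell had 28552 UMIs in all, with 23 of the macrophage markers, 30 of the endothelial and 45 of the fibroblast markers. Without it the ratio was 0.301 (0.228 to 0.392). The alternative was chosen after the value was seen.

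*Igfbp4* and *Igfbp6* were lower in LPS as well. *Igfbp4*, mainly an inhibitor of IGF action until it is cut by a protease, was highest in the endothelial clusters, with 363 CPM in control and 180 in LPS in cluster 4 (ratio 0.498, 0.470 to 0.527) and 256 and 101 in cluster 5 (ratio 0.393, 0.352 to 0.439). In cluster 0 it was 98.6 and 56.8, a ratio of 0.576 (0.555 to 0.598). Over the 10 clusters the ratio ran from 0.282 in cluster 9 to 0.716 in cluster 7, each interval below 1. In cluster 3 *Igfbp4* was 41.4% and 37.9% of cluster 0, within the fibroblast marker ranges there (18.6% to 46.8% and 15.9% to 53.2%). In macrophages it was 46.6% and 41.8% of cluster 0, above the fibroblast marker ranges there (17.4% to 42.6% and 19.7% to 35.8%). The macrophage level was 12.7% and 13.2% of that in cluster 4, where *Igfbp4* was highest. This lay within the ranges of the 6 endothelial markers in macrophages, 4.18% to 14.3% and 4.61% to 28.9% of their cluster 4 levels. The part of free RNA in these levels was not tested. *Igfbp6*, which binds IGF2 more tightly than IGF1, had 4978 and 1768 UMIs in cluster 0, levels of 55.0 and 24.0 and a ratio of 0.436 (0.413 to 0.460). Its highest level was in cluster 8, 72.9 and 54.3, a ratio of 0.745 whose interval included 1 (0.521 to 1.06), and the intervals of clusters 8 and 9 overlapped in both libraries. In clusters 3 and 4 *Igfbp6* was between 30.4% and 37.8% of its cluster 0 level, beside 22.1% to 32.7% for the summed fibroblast markers. In both clusters and both libraries it lay within the range of the single fibroblast markers. In cluster 3 it was 37.8% and 32.0%. In cluster 4 it was 34.0% and 30.4%, just under the highest marker there (34.1% and 30.8%). The part of free RNA in these *Igfbp6* levels was not tested.

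*Igfbp2*, a binding protein of fetal tissues, was concentrated in cluster 4, which held 448 UMIs in control and 335 in LPS, or 73.0% and 77.9% of all its UMIs. The levels there were 40.3 and 34.4 CPM, a ratio of 0.855 (0.740 to 0.987), whereas the other endothelial cluster had 7 and 2 UMIs. Most cells of cluster 4 had no *Igfbp2* UMI. It was seen in 22.7% of control and 16.0% of LPS cells (8.02% and 5.40% thinned, median depths 12499 and 9972). The 10% of cells with the most held 75.4% and 85.4% of the UMIs of cluster 4. In cluster 0, with 72 and 37 UMIs, the level was 0.796 and 0.502 CPM. The ratio of 0.631 (0.412 to 0.950) was past 1.5-fold lower. As a percentage of cluster 4 this level was 1.98% in control and 1.46% in LPS. The 6 endothelial markers in cluster 0 stood at 2.04% to 9.63% and at 1.33% to 9.39% of their cluster 4 levels. The part of free RNA in the *Igfbp2* level of cluster 0 was not tested. Cluster 8 had 39 and 31 UMIs, levels of 35.1 and 29.5 and a ratio of 0.842 (0.508 to 1.38), and its levels overlapped those of cluster 4. Thus *Igf2* and *Igfbp2* each marked one of the 2 endothelial clusters more than the other, *Igf2* cluster 5 and *Igfbp2* cluster 4. *Igfbp7*, a distant relative with low affinity for IGFs that is known from vessel walls, was highest in cluster 4 (1367.9 and 1596.1, ratio 1.17) and cluster 2 (1230.3 and 1337.9, ratio 1.09). In clusters 0 to 9 its ratio stayed between 0.949 and 1.17, and in cluster 0 it was 1.05 (1.04 to 1.07).

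**Figure D4:**
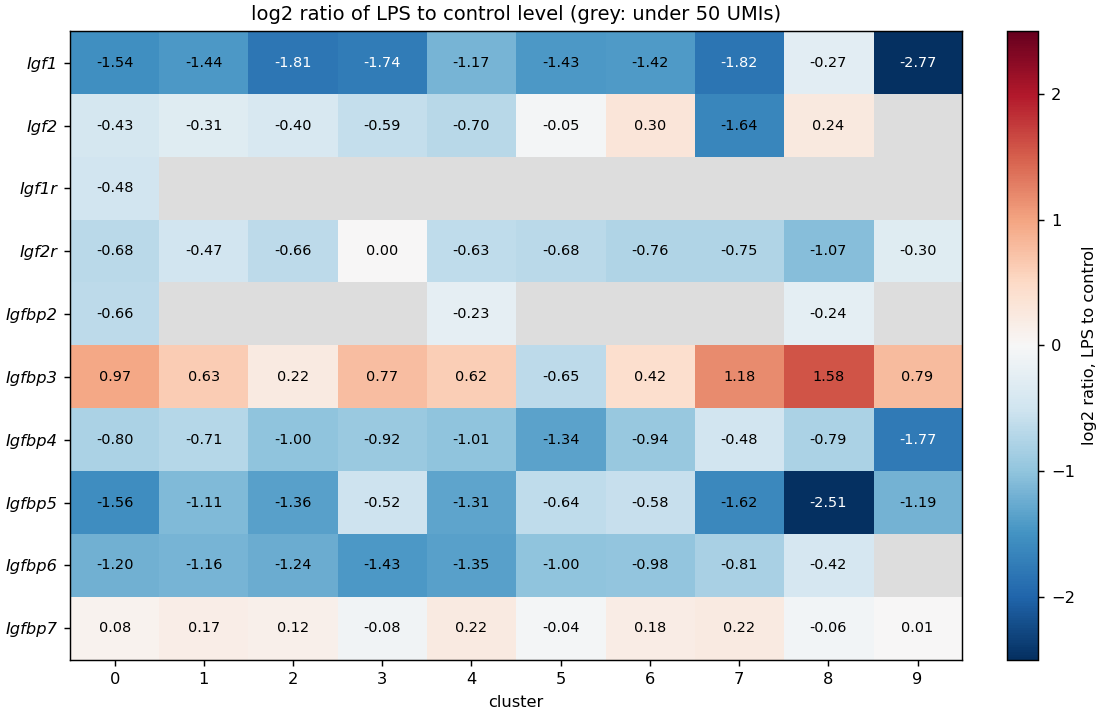
Log2 ratio of the LPS to the control level for each gene (rows) in clusters 0 to 9 (columns), blue for lower and red for higher in LPS, with pairs under 50 UMIs in grey. The *Igf1*, *Igfbp4* and *Igfbp5* rows are blue throughout, and the *Igfbp3* row is red with the exception of cluster 5 (-0.65).

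Of the 100 pairs of gene and cluster, 82 had at least 50 UMIs over both libraries, of which 46 were at least 1.5-fold lower and 7 at least 1.5-fold higher in LPS. Such counts are read against the share of all genes with at least 50 UMIs in the same cluster that passed the same fold, and the 50 UMI minimum was also met by each gene counted there. In cluster 0, 6 of the 10 genes were lower and 1 was higher, against 19.7% lower and 6.88% higher among 12247 genes. In cluster 1, 4 of 8 were lower and 1 higher (all genes 13.1% and 6.42%), in cluster 2, 5 and 0 of 8 (13.3% and 5.78%), in cluster 3, 4 and 1 of 8 (5.26% and 4.36%), and in cluster 4, 6 and 1 of 9 (13.1% and 5.58%). In cluster 5, 6 and 0 of 8 were lower and higher (13.0% and 9.50%), in cluster 6, 4 and 0 of 8 (30.3% and 8.79%), in cluster 7, 5 and 1 of 8 (11.6% and 10.4%), in cluster 8, 3 and 1 of 9 (6.78% and 6.91%), and in cluster 9, 3 and 1 of 6 (8.48% and 8.24%). Over all cells, 4 of 10 were lower and 1 higher, against 18.4% and 6.55%. In each cluster the lower genes were a larger share of the members counted than of all genes, and the genes share cells, so these are descriptions.

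The median log2 ratio of all genes was not 0 everywhere: it was -0.13 in cluster 0, -0.12 in cluster 2, -0.30 in cluster 6 and -0.13 over all cells. Relative to that median, 4 of the 10 genes were lower and 1 was higher in cluster 0 (15.3% and 9.23% of all genes), and in cluster 2, 4 were lower and none higher (9.47% and 7.57%). In cluster 4, with a median of -0.09, 5 were lower and 1 higher (10.2% and 6.93%). In macrophages the split became 3 lower and 2 higher (15.7% and 16.1%), and over all cells it stayed at 4 and 1 (14.0% and 8.77%). The median of the 10 genes in cluster 0 was -0.67.

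Within cluster 0, *Igfbp5* and *Igf1* lay far down the distribution of all genes, with log2 ratios of -1.56 and -1.54. Only 386 and 400 of the 12247 genes had a lower ratio, 3.15% and 3.27%. *Igfbp6* followed at -1.20, with 747 genes lower. *Igfbp3*, at 0.97, had 437 genes above it.

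**Figure D5:**
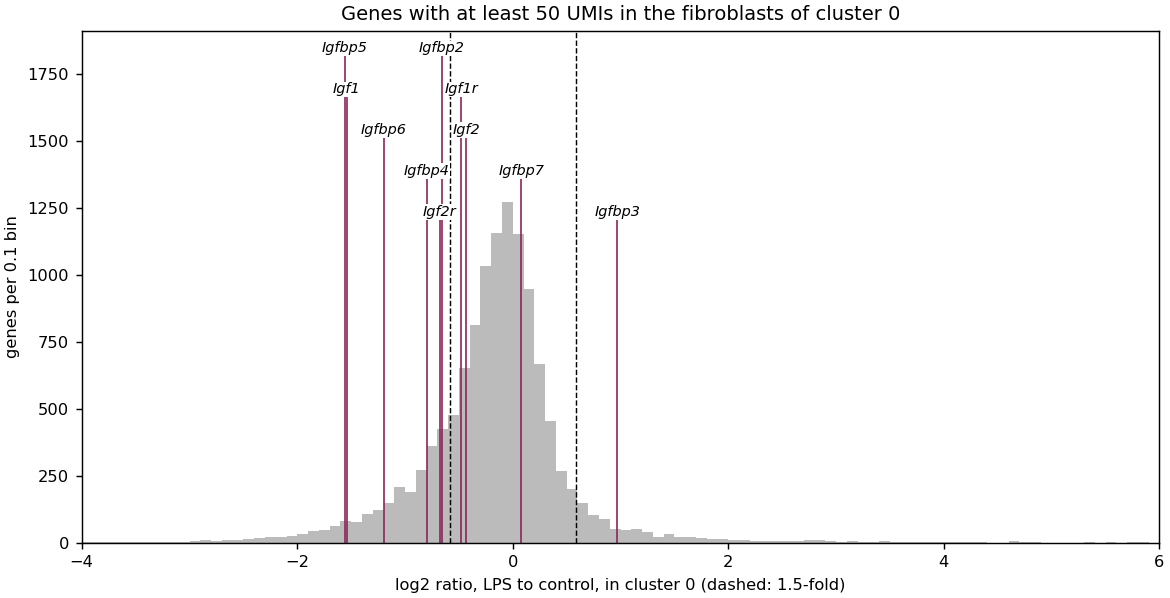
Number of genes per bin of 0.1 (y axis) by log2 ratio of LPS to control in cluster 0 (x axis, shown from -4 to 6), for the 12247 genes with at least 50 UMIs, with a line for each of the 10 genes and dashed lines at 1.5-fold. *Igf1* (-1.54) and *Igfbp5* (-1.56) lie in the lower tail and *Igfbp3* (0.97) in the upper tail, while *Igfbp7* (0.08) is near the middle.

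Other genes of the pathway were counted from a list of 42, of which 40 were in the files and 35 had at least 50 UMIs in cluster 0. In that cluster 8 were at least 1.5-fold lower and 2 at least 1.5-fold higher in LPS, with a median log2 ratio of -0.18. These counts were close to the shares of all genes (19.7% lower and 6.88% higher), so the genes named below are not read as a result about the pathway. *Stc1*, an inhibitor of some of the proteases that cut binding proteins, went from 17.2 to 3.05 CPM in cluster 0, a ratio of 0.177 (0.153 to 0.204). The proteases *Pappa*, which matched no listed symbol, and *Pappa2*, with 1 and 6 UMIs over all clusters, could not be compared. *Mmp3*, a matrix protease that also cuts *Igfbp3* protein, went from 18.9 to 31.5, a ratio of 1.66 (1.56 to 1.77). *Adam12*, a further protease of binding proteins, had 101 and 46 UMIs, a ratio of 0.559. *Htra1*, likewise such a protease, did not pass the fold (295 and 293, ratio 0.992).

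Inside the cell, *Jak2*, the kinase bound to the growth hormone receptor and to cytokine receptors, differed most. It had 1715 UMIs in control and 13975 in LPS in cluster 0, a ratio of levels of 10.00 (9.51 to 10.5), and it was higher in all 10 clusters, by 3.74 in cluster 8 to 14.0 in cluster 5. The regulatory subunits of phosphoinositide 3-kinase were lower in cluster 0, *Pik3r1* from 58.0 to 35.0 (ratio 0.604) and *Pik3r2* from 54.1 to 34.8 (ratio 0.642). The lower genes also included 4 at low levels. They were the adaptor *Gab1* (1.54 to 0.420 CPM, ratio 0.274), the kinase *Akt2* (3.08 to 1.37, 0.444) and the forkhead factor *Foxo3* (2.46 to 1.33, 0.539). The last was *Stat5b* (5.04 to 3.27, 0.648), a transcription factor downstream of the growth hormone receptor. Their relatives *Akt1* (55.5 and 49.0, ratio 0.883) and *Stat5a* (7.39 and 8.49, 1.15), and the kinase subunit *Pik3ca* (37.6 and 40.1, 1.07), did not pass the fold. *Igfbp1*, *Igfals* and *Igfbpl1*, the remaining binding partners on the list, had 11, 5 and 12 UMIs in the control library and 13, 8 and 10 in the LPS library.

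The genes most like each member were found from Pearson's r of log2(CPM + 1) over clusters 0 to 9 in both libraries, 20 points that share libraries and clusters, among 9896 genes with at least 500 UMIs. They are a description without a test, and *Igf1r*, with 258 UMIs in all, was left out. *Igf2r* was most like *Kcnk3* (0.954) and *Kidins220* (0.953), and *Igfbp7* most like *Sgce* (0.968), *Csrp1* (0.896) and *Gmpr2* (0.883). *Igf2* was followed by *Cd24* (0.918), *Traf3ip2* (0.851) and *Ica1* (0.846), and *Igfbp2* by *Cldn15* (0.860), *Tspan8* (0.859) and *Cdc42ep3* (0.818). For *Igf1* the leading genes were *Gga2* (0.839), *Tekt3* (0.828) and *Myoz1* (0.827), and for *Igfbp3* they were *LOC500956* (0.847), *Arf4* (0.846) and *Arf5* (0.834). *Igfbp4* was closest to *Phf14* (0.929), *Slc9a3r2* (0.927) and *Rtn1* (0.921), *Igfbp5* to *Fam198b* (0.878), *Fblim1* (0.860) and *Sall2* (0.841), and *Igfbp6* to *Rpp25* (0.929), *Dclk1* (0.917) and *Il17re* (0.899). No member was among the 3 genes most like another member, including *Igfbp2* and *Igfbp5*, which are next to each other on chromosome 9 in RefSeq's order of coding genes.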

How the data were processed

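The authors deposited, for each library, raw UMI counts per gene and cell and a table of clusters, which per the study's methods came from canonical correlation and graph clustering in Seurat (resolution 0.5). The submitters' processing notes name Cell Ranger 2.2.0 and Seurat 2.3.4, and the genome build is not given in the sources used here. Cells without a cluster (2 control, 8 LPS) were left out, and no doublet caller was run. Counts were summed per library and cluster and divided by the cluster's total. Poisson and Clopper-Pearson intervals (95%) came from scipy 1.17.1 in Python 3.11.15, and log2 ratios had 0.5 UMI added to each sum. Genes needed 50 UMIs over both libraries in a cluster, and cluster 10 was too small to compare. For shares, each cell was thinned to 3000 UMIs, leaving out 79 shallower LPS cells. Only the ratios and their intervals were tested on simulated data, drawn as Poisson counts for a fibroblast and the macrophage cluster. The intervals assume the same Poisson counts, so that test could not show how they hold with spread between cells. The genes, the lists and the rule for named genes (all 10 genes, the 3 most like each with at least 500 UMIs, and pathway genes past 1.5-fold with at least 50 UMIs in cluster 0) were chosen with earlier results of these data known. *Htra1*, *Pappa2*, *Akt1*, *Pik3ca*, *Stat5a* and the binding partners below 50 UMIs were named in addition, after their values were seen. For *Igf2r*, 1 of the 3 is not reported here. *Pappa* and *H19* of the pathway list, and the markers *Pecam1* and *Ttn*, matched no listed symbol. The authors assigned clusters from all genes, these 10 included, so levels between clusters are descriptions.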

Additional observations from a re-analysis of the deposited data

Results flagged for a closer look

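*Igfbp3* in the endothelial cells of cluster 5 went the opposite way to its other values. Its log2 ratio of LPS to control was -0.65 there, while 7 other clusters were at least 1.5-fold higher in LPS. Those 7 included the fibroblasts of clusters 0, 1 and 7, and clusters 3, 8 and 9, where the part of free RNA was not tested. With 1 library per condition the difference between clusters was not tested.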

How the results depend on the processing

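No paired analysis was possible because there was 1 library per condition. The 10 alternatives changed the fold, the UMI minimum, the cells, the totals, the centring or the clusters. Of 574 log2 ratios under 7 of these, 484 stayed within the counting interval of the reported value, 87 moved outside it and 3 changed sign. Joining the fibroblast and the endothelial clusters left clusters 2, 3, 6, 8 and 9 as they were, so their values could not move. Centring and changed totals shifted all members in a cluster by the same amount. The 484 thus includes values fixed in advance and is not read as a measure of stability. The largest shift in log2 ratio was 1.62 with cells of at least 3000 UMIs and under 20% mitochondrial UMIs. It was 1.25 after thinning, 1.22 with clusters joined and 0.96 without the 8% of cells with the most UMIs. By the mean of the cells' own levels it was 0.51, with centring 0.30 and with changed totals 0.07. The sign changes were *Igfbp3* in cluster 5 with fibroblast and endothelial clusters joined (0.27), and *Igfbp7* in cluster 6 as the mean of the cells' own levels (-0.05) and without the 8% of cells with the most UMIs (-0.01). Joining clusters also replaces cluster 5 by the sum of clusters 4 and 5. The 7 higher pairs of gene and cluster became 2 at 2-fold and 4 with clusters joined, and the 46 lower pairs became 27 and 30. Joining leaves fewer pairs to count, and the shares of all genes under these settings are not given here. These counts are therefore not read as results about the 10 genes. The cluster with the highest control level stayed the same for 7 of the 10 genes after thinning, where *Igf1* moved from cluster 10 to 0, *Igf1r* from 3 to 2 and *Igfbp2* from 4 to 8. It stayed the same for 9 with cells of at least 3000 UMIs and under 20% mitochondrial UMIs (*Igfbp6*, cluster 9), for 9 by the mean of the cells' own levels (*Igf1*, cluster 0) and for 9 without the 8% of cells with the most UMIs (*Igfbp3*, cluster 7). The cause of these changes was not tested. Depth limits *Igf1r*, which had 258 UMIs in all, and clusters 8 to 10.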
